A study of Mus musculus with 9 samples.

Results

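The 8 genes described here are the mucins Muc5ac, Muc6, Muc5b, Muc1, Muc4, Muc13 and Muc20 and the gland mucin enzyme A4gnt. They were picked by name out of the 18423 genes of the deposited expression table and were followed in all 9 libraries. Mucins are long proteins whose repeats carry dense O-linked sugar chains. Secreted mucins form the mucus gel that separates the stomach wall from acid and pepsin, whereas membrane mucins stay anchored at the apical surface of epithelial cells. In the stomach the surface (pit) cells make Muc5ac and the mucous neck and gland cells make Muc6, to whose sugar chains A4gnt adds a terminal N-acetylglucosamine.

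The study sequenced poly(A) RNA of glands from the stomach corpus of mice of 3 genotypes, with 3 libraries each. The Arid1a_Het mice were Atp4bCre; Rosa26NICD; Arid1aflox/+, the Ctrl mice were Atp4bCre; Rosa26NICD, and the WT mice were wild type. Both the Arid1a_Het and the Ctrl mice therefore carried a Cre driven by Atp4b, the gene of a subunit of the parietal cell proton pump, and an NICD allele at Rosa26. NICD is the intracellular domain of Notch, the part of the receptor that acts in the nucleus. Arid1a encodes a subunit of the SWI/SNF chromatin remodelling complex, and one floxed copy of it distinguished Arid1a_Het from Ctrl mice. EDTA was used to loosen the glands, which were then scraped off corpus carrying tumours or off the matching place of a normal stomach, and no age is labelled. Whether the replicates are separate animals is not labelled, and the p-values rest on the spread between libraries, which may in part be technical.

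Levels are FPKM, that is, fragments per kilobase of exon scaled to the mapped fragments of the library, so that genes can be compared per length. Between 22670299 and 29502263 reads per library could be recovered from the values. Arid1a itself had 8.94, 5.90 and 6.96 FPKM in Arid1a_Het libraries, 14.9, 13.3 and 16.2 FPKM in Ctrl libraries and 13.5, 7.79 and 12.0 FPKM in WT libraries. Pancreas genes summed to 4210 FPKM in Ctrl 1 and 1622 FPKM in Arid1a_Het 3, against 81.3 to 329 FPKM in the other 7 libraries, and Arid1a_Het 3 was registered apart from the others. Pit markers summed to 43951 to 79287 FPKM in Arid1a_Het, 36742 to 43387 FPKM in Ctrl and 67516 to 92544 FPKM in WT libraries. Leukocyte markers summed to 388 to 671 FPKM in Arid1a_Het, 358 to 638 FPKM in Ctrl and 24.6 to 46.4 FPKM in WT libraries. Parietal markers (5 of 5 in the table, none at 0 in any library) summed to 373 to 4522 FPKM in Arid1a_Het, 216 to 969 FPKM in Ctrl and 2515 to 13000 FPKM in WT libraries. Chief cell markers (5 of 6, none at 0) summed to 7303 to 82692 FPKM in Arid1a_Het, 5726 to 19463 FPKM in Ctrl and 12057 to 82457 FPKM in WT libraries. Most of each chief cell sum came from Pgc alone. Pgc ran from 7049 to 80305 FPKM in Arid1a_Het, 5474 to 18662 FPKM in Ctrl and 11528.5 to 76555 FPKM in WT. Of the mucins and A4gnt, 7 passed the expression filter of at least 1 FPKM in at least 3 libraries. Muc20 did not pass it and was not tested in the main analysis.

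Muc5ac, the gel-forming mucin of pit cells, was the most abundant of the 8 genes in WT glands. It reached 370, 543 and 432 FPKM in Arid1a_Het, 574, 141 and 505 FPKM in Ctrl, and 1542, 1146 and 906 FPKM in WT libraries. All 6 NICD-carrying libraries lay below all 3 WT libraries, and Arid1a_Het and Ctrl overlapped, with Ctrl 2 the lowest of all. Means were 448 ± 87.6 FPKM in Arid1a_Het, 407 ± 233 FPKM in Ctrl and 1198 ± 321 FPKM in WT (SD, n = 3 each).

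Muc5ac was lower in Ctrl than in WT libraries, with a log2 fold change of -1.76 (SE 0.48, 95% confidence interval -2.83 to -0.69; limma adjusted p = 0.0484). Here and below, fold changes are on the log2(FPKM + 1) scale, and p-values are adjusted over all 11209 genes that passed the filter. This call stood close to the threshold of 0.05. It ended when any library but Arid1a_Het 2 was left out, with adjusted p = 0.0649 without Arid1a_Het 1, 0.0566 without Arid1a_Het 3, 0.0540 without Ctrl 1, 0.0578 without Ctrl 2, 0.0872 without Ctrl 3, 0.0920 without WT 1, 0.126 without WT 2 and 0.0817 without WT 3, while the log2 fold change ran from -2.13 without Ctrl 1 to -1.12 without Ctrl 2. It also ended with no filter (adjusted p = 0.0941), quantile normalization (0.0591), only the Ctrl and WT libraries in the fit (0.0651), limma voom on whole reads (0.0547) and without the 2 libraries with most pancreas reads (0.0528). The summed pit markers were lower in Ctrl than in WT libraries too. Between Arid1a_Het (43951 to 79287 FPKM) and WT libraries (67516 to 92544 FPKM) the pit sums overlapped, whereas Muc5ac did not. The part of these markers in the Muc5ac result was not tested. In bulk glands, fewer cells of a type and less RNA per cell cannot be told apart.

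Between Arid1a_Het and WT libraries the Muc5ac log2 fold change was -1.40 (SE 0.48, interval -2.47 to -0.33). Its limma adjusted p was 0.166, against an unadjusted p of 0.0161, so it was not called, although without Ctrl 2, which enters the estimate of spread alone, the adjusted p was 0.0327. Between Arid1a_Het and Ctrl libraries the value was 0.36 (interval -0.71 to 1.43; adjusted p = 0.745), and leaving out Ctrl 2 turned it to -0.28.

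Muc6, the gel-forming mucin of mucous neck cells, was far less abundant per length than Muc5ac. It had 6.30, 12.1 and 12.3 FPKM in Arid1a_Het, 37.5, 7.76 and 13.5 FPKM in Ctrl, and 21.6, 7.98 and 28.0 FPKM in WT libraries. The 3 groups overlapped, and the highest value, in Ctrl 1, stood in the library in which the neck markers Tff2 and Gkn3 also summed highest, at 18377 FPKM. No comparison was called, with log2 fold changes of -0.09 for Ctrl against WT (interval -1.38 to 1.20; limma adjusted p = 0.920), -0.65 for Arid1a_Het against Ctrl (interval -1.94 to 0.65; 0.633) and -0.74 for Arid1a_Het against WT (interval -2.03 to 0.55; 0.592). Intervals of this width do not show that the groups had like levels. Ctrl 1 also had the highest pancreas sum, at 4210 FPKM. Without Ctrl 1 the log2 fold change of Ctrl against WT was -0.68 (limma adjusted p = 0.402), and without Ctrl 2 it was 0.39 (0.663).

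A4gnt, the glycosyltransferase that caps gland mucin, had 24.6, 52.9 and 42.4 FPKM in Arid1a_Het, 60.8, 52.2 and 18.7 FPKM in Ctrl, and 55.1, 25.5 and 84.1 FPKM in WT libraries. Its highest and lowest libraries were WT 3 and Ctrl 3, and the groups overlapped. The log2 fold change was -0.32 for Ctrl against WT (interval -1.50 to 0.86; limma adjusted p = 0.669), -0.04 for Arid1a_Het against Ctrl (interval -1.22 to 1.14; 0.978) and -0.36 for Arid1a_Het against WT (interval -1.54 to 0.82; 0.810).

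The log2 ratio of A4gnt to Muc6, each as FPKM + 1, was 1.81, 2.04 and 1.71 in Arid1a_Het, 0.69, 2.60 and 0.44 in Ctrl libraries, and 1.31, 1.56 and 1.55 in WT libraries. Enzyme and substrate kept a narrow ratio within Arid1a_Het and within WT, whereas the Ctrl libraries spread on both sides of them. The Arid1a_Het ratios lay above all WT ratios, by 0.38 on average, and the exact permutation p (two-sided) was 0.1, the smallest that 3 against 3 libraries allow. The ratio of Muc6 to Muc5ac was -5.67, -5.38 and -5.02 in Arid1a_Het, -3.90, -4.02 and -5.13 in Ctrl libraries, and -6.09, -7.00 and -4.97 in WT libraries on the same log2 scale. Its mean difference was 1.67 for Ctrl against WT (exact permutation p = 0.2), -1.01 for Arid1a_Het against Ctrl (0.2) and 0.66 for Arid1a_Het against WT (0.4). For A4gnt to Muc6 it was -0.23 for Ctrl against WT (exact permutation p = 0.9) and 0.61 for Arid1a_Het against Ctrl (0.4). Over these 6 tests the adjusted p was 0.4 or higher in each. The Ctrl against WT difference of A4gnt to Muc6 changed sign without Ctrl 1 (0.0464) and without Ctrl 3 (0.17).

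**Figure D1:**
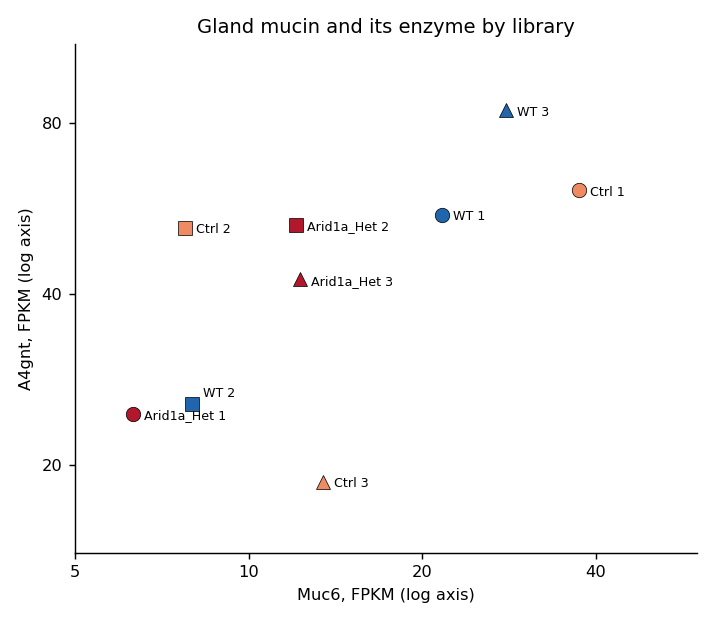
Each point is 1 library, with Muc6 on the horizontal and A4gnt on the vertical axis, both in FPKM on log axes, coloured by genotype and shaped by replicate number. The 3 Ctrl libraries have log2 ratios of A4gnt to Muc6 outside the range of the other 6 libraries, which is 1.31 to 2.04: Ctrl 2 lies above it (2.60) and Ctrl 1 (0.69) and Ctrl 3 (0.44) lie below it.

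Muc5b, a gel-forming mucin best known from airways and salivary glands, was near the lower limit of the data. It had 0.154, 1.10 and 0.510 FPKM in Arid1a_Het, 0.707, 1.02 and 2.90 FPKM in Ctrl, and 0.363, 1.49 and 0.132 FPKM in WT libraries, from 46 to 1172 reads. The groups overlapped and the highest library was Ctrl 3. Its log2 fold change was 0.60 for Ctrl against WT (interval -0.28 to 1.48; limma adjusted p = 0.291), -0.63 for Arid1a_Het against Ctrl (interval -1.51 to 0.25; 0.527) and -0.02 for Arid1a_Het against WT (interval -0.90 to 0.86; 0.987). With a pseudocount of 0.1 the values were 1.33 for Ctrl against WT and -1.29 for Arid1a_Het against Ctrl, still not called (limma adjusted p = 0.283 and 0.562). The 3 secreted mucins lie in one cluster on chromosome 7 (GRCm38, GENCODE M21), Muc6 at chr7:141633456-141655319 on the minus strand, Muc5ac at chr7:141788972-141819231 and Muc5b at chr7:141839070-141873084 on the plus strand. Muc5ac and Muc5b lie 19.8 kb apart, and in each library Muc5ac was far above Muc5b per length.

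Muc1, a membrane mucin with a cytoplasmic tail that takes part in signalling, was abundant in every library. It had 545, 496 and 569 FPKM in Arid1a_Het, 397, 454 and 534 FPKM in Ctrl, and 249, 313 and 253 FPKM in WT libraries. Every NICD-carrying library lay above every WT library, and Arid1a_Het overlapped Ctrl. Means were 536 ± 37.2 FPKM in Arid1a_Het, 461 ± 68.9 FPKM in Ctrl and 272 ± 36.2 FPKM in WT (SD, n = 3 each).

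Muc1 was higher in Ctrl than in WT libraries by 0.76 on the log2 scale (SE 0.17, interval 0.38 to 1.14; limma adjusted p = 0.0254) and higher in Arid1a_Het than in WT libraries by 0.98 (SE 0.17, interval 0.60 to 1.37; 0.0193). Between Arid1a_Het and Ctrl the difference was 0.23 (interval -0.16 to 0.61; adjusted p = 0.590). The median of all tested genes was itself 0.24 higher in Ctrl than in WT, and median-ratio scaling, which brings that median to 0.01, gave Muc1 a value of 0.49 (adjusted p = 0.176) for Ctrl against WT and 0.94 (adjusted p = 0.0687) for Arid1a_Het against WT. The Ctrl against WT call also ended with no filter (adjusted p = 0.0523) and without Ctrl 1 (0.0532), Ctrl 2 (0.0703), Ctrl 3 (0.0893), WT 1 (0.0625) or WT 3 (0.0853). The Arid1a_Het against WT call ended with no filter (adjusted p = 0.0550), with only those 6 libraries (0.0573), without the 2 libraries with most pancreas reads (0.1002) and without Arid1a_Het 1 (0.0776), Arid1a_Het 3 (0.0648), WT 1 (0.0629) or WT 3 (0.0984).

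Muc4, a large membrane mucin with domains like epidermal growth factor, spanned the widest range of the 7 tested genes, from lowest to highest library as a ratio. It had 14.2, 4.66 and 21.1 FPKM in Arid1a_Het, 26.3, 22.4 and 51.7 FPKM in Ctrl, and 7.02, 0.956 and 1.44 FPKM in WT libraries. All Ctrl values exceeded all values of the other groups, while Arid1a_Het 2 fell below WT 1. Means were 13.3 ± 8.25 FPKM in Arid1a_Het, 33.4 ± 15.9 FPKM in Ctrl and 3.14 ± 3.37 FPKM in WT (SD, n = 3 each).

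Muc4 was higher in Ctrl than in WT libraries by 3.26 on the log2 scale (SE 0.62, interval 1.86 to 4.66; limma adjusted p = 0.0160). That call ended without Ctrl 3 (2.91, adjusted p = 0.0747), WT 2 (2.87, 0.0603) or WT 3 (3.03, 0.0583), and held under the other 15 alternatives. In Arid1a_Het against Ctrl the log2 fold change was -1.38 (interval -2.78 to 0.02; limma adjusted p = 0.435, unadjusted p = 0.0526), with no overlap of the groups but no call. In Arid1a_Het against WT it was 1.88 (interval 0.48 to 3.28; adjusted p = 0.154), and 2.44 (0.0440) without Arid1a_Het 2. In each group the library highest in Muc4 was also the highest in the summed squamous markers, genes of stratified epithelium such as that of the forestomach. Those sums were 346, 203 and 723 FPKM in Arid1a_Het, 253, 303 and 756 FPKM in Ctrl, and 418, 96.7 and 46.2 FPKM in WT libraries, of 9 markers, of which Trp63, Krt6a and Sprr3 were at 0 in at least 1 library. Sprr1a, the most abundant of these markers, had 290, 181 and 559 FPKM in Arid1a_Het and 219, 265 and 647 FPKM in Ctrl libraries. In WT libraries it had 74.4, 94.3 and 43.6 FPKM. It made up most of the sum in every library except WT 1. The part of these markers in the Muc4 result was not tested.

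Muc13, a membrane mucin of gastrointestinal epithelium, had 2.16, 11.1 and 11.4 FPKM in Arid1a_Het, 24.3, 19.6 and 24.9 FPKM in Ctrl, and 3.42, 7.54 and 1.06 FPKM in WT libraries. The Ctrl libraries were tightly grouped above all others, and Arid1a_Het overlapped WT. Muc13 was higher in Ctrl than in WT libraries by 2.48 on the log2 scale (SE 0.59, interval 1.14 to 3.82; limma adjusted p = 0.0325). This call ended without Ctrl 1 (adjusted p = 0.0901), Ctrl 2 (0.0735), Ctrl 3 (0.116), WT 1 (0.0585) or WT 3 (0.0853), and with no filter (0.0716), median-ratio scaling (0.0676), quantile normalization (0.0586), limma voom on whole reads (0.0506) and without the 2 libraries with most pancreas reads (0.0831). Against Ctrl, Arid1a_Het libraries had a log2 fold change of -1.61 (SE 0.59, interval -2.94 to -0.27), with an unadjusted p of 0.0234 and a limma adjusted p of 0.403. Against WT the value was 0.87 (interval -0.46 to 2.21; adjusted p = 0.527).

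Muc20, a small membrane mucin, was detected at 0.295, 0.202 and 1.64 FPKM in Arid1a_Het, 1.27, 0.623 and 0.983 FPKM in Ctrl, and 0.438, 0.0755 and 0.0321 FPKM in WT libraries. All Ctrl values lay above all WT values, on 3 to 192 reads per library in all. With no filter its log2 fold change was 0.73 for Ctrl against WT (SE 0.30; limma adjusted p = 0.179), -0.28 for Arid1a_Het against Ctrl (0.759) and 0.45 for Arid1a_Het against WT (0.581). Muc20 (chr16:32777419-32797435, minus strand) overlaps the end of Muc4 (chr16:32735886-32782391, plus strand) by 4973 bases, and the strand setting of the counting is not given in the sources used here. The libraries keep strand, but if the counting did not use it, reads in that stretch could be assigned to the wrong gene of the pair, so the Muc20 values are uncertain. Muc13 lies on the same chromosome at chr16:33794037-33819934, 1011.6 kb from Muc4, whereas Muc1 is at chr3:89229057-89233381 and A4gnt at chr9:99612502-99622367, all on the plus strand.

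**Figure D2:**
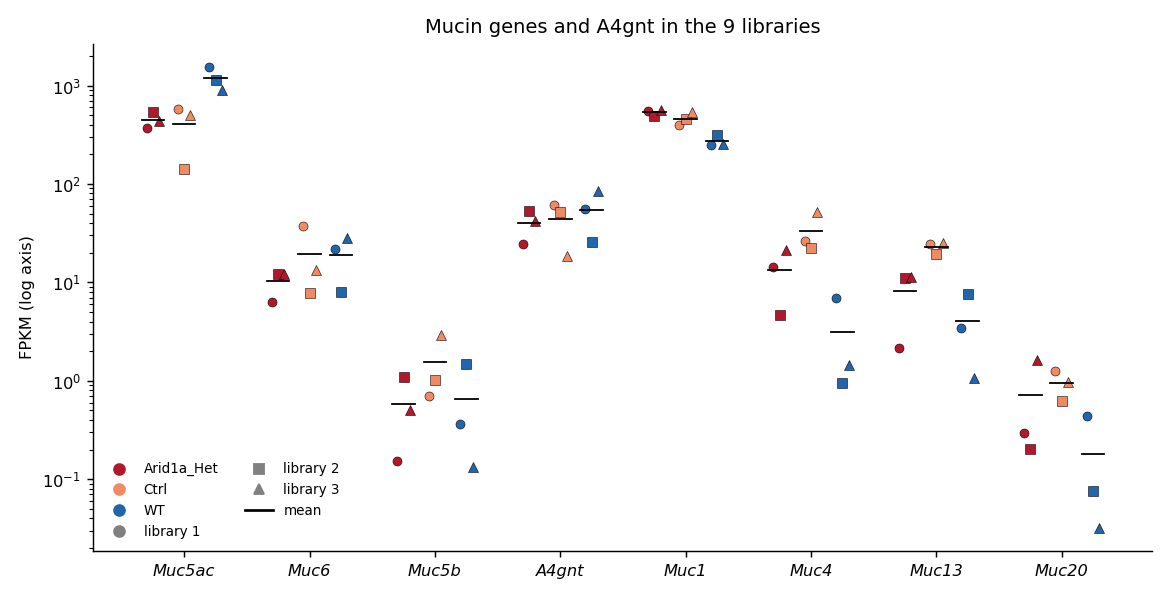
FPKM of each of the 8 genes on a log axis, 1 point per library, with Arid1a_Het, Ctrl and WT side by side, shapes for the replicate number and a black line at each group's mean. WT points lie highest for Muc5ac, at 906 to 1542 FPKM, and lowest for Muc1, at 249 to 313 FPKM, and Ctrl points lie highest for Muc4 and Muc13.

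Of the 7 tested genes, 3 were higher in Ctrl than in WT libraries (Muc1, Muc4 and Muc13, all membrane mucins), where 7.01% of all tested genes were called higher, and 1 was lower (Muc5ac), where 3.04% were. The other 3, Muc6, Muc5b and A4gnt, were not called. Outside these 7, the mucin-like gene Dpcr1 was called lower and the sialomucin Cd164 was not called, as given below. The calls therefore do not describe membrane mucins as a class. Between the same libraries the parietal marker sum was lower in Ctrl without overlap and the leukocyte marker sum higher without overlap, as given above, and their part in these calls was not tested. The median log2 fold change of the 7 was 0.60, against 0.24 over all tested genes, and relative to that median the called genes stood at 0.52 (Muc1), 3.02 (Muc4), 2.24 (Muc13) and -2.00 (Muc5ac). Without overlap between the groups, 3 of 7 lay higher in Ctrl than in WT and 1 lower, against 33.5% and 10.2% of all tested genes.

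Between Arid1a_Het and Ctrl libraries limma called none of the 7 genes, where 0.00892% of all tested genes (1 gene) were called, and limma voom on whole reads called none of the 7 either. Only Muc13 had an unadjusted p under 0.05, where 11.6% of all tested genes did. Muc4 and Muc13 lay lower in all Arid1a_Het than in all Ctrl libraries, as did 22.2% of all tested genes. The median log2 fold change was -0.63 over the 7 genes and -0.16 over all tested genes.

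Between Arid1a_Het and WT libraries 1 of 7 was called higher (Muc1), where 2.06% of all tested genes were, and none lower, where 0.687% were. The unadjusted p was under 0.05 for 3 of the 7 (Muc1, Muc4 and Muc5ac), where 17.2% of all tested genes reached it. Without overlap of the groups, 1 of 7 lay higher in Arid1a_Het than in WT (Muc1) and 1 lower (Muc5ac), against 10.6% and 8.57% of all tested genes. Medians were -0.02 over the 7 genes and 0.02 over all. The 3 comparisons share libraries and are not independent of each other.

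**Figure D3:**
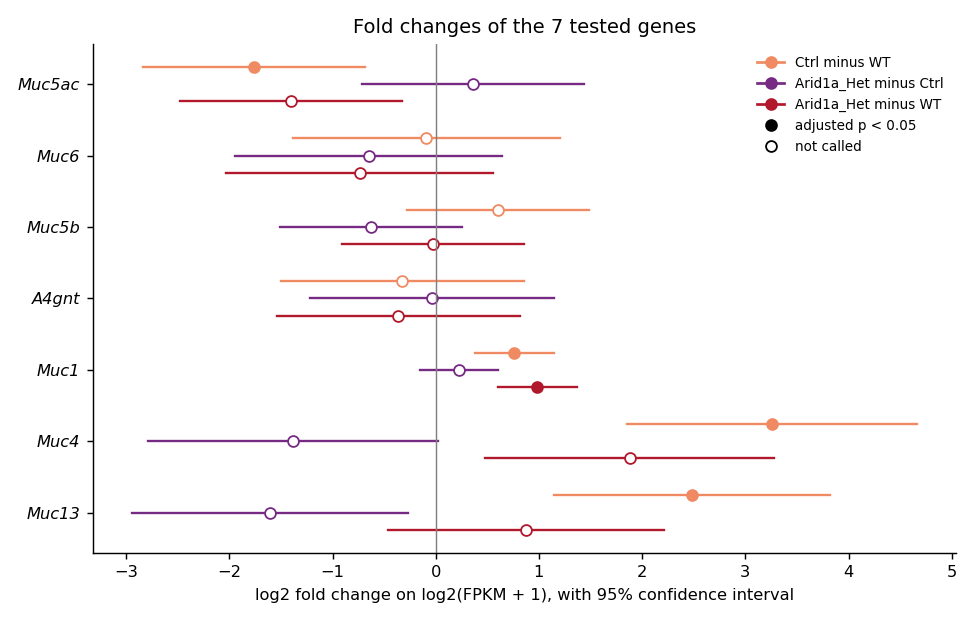
Log2 fold changes on the log2(FPKM + 1) scale with 95% confidence intervals for the 7 tested genes in the 3 comparisons. Filled points have a limma adjusted p under 0.05 and open points do not. Filled are Muc5ac (-1.76), Muc1 (0.76), Muc4 (3.26) and Muc13 (2.48) for Ctrl against WT and Muc1 (0.98) for Arid1a_Het against WT.

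Per length, the make-up of the 7 mucin transcripts in WT libraries stood apart from that in Arid1a_Het and Ctrl libraries, which overlapped each other, and no test was made of it. Muc5ac took 39.5%, 50.9% and 41.2% of the summed FPKM of the 7 mucins in Arid1a_Het, 54.1%, 21.8% and 44.6% in Ctrl libraries, and 84.6%, 77.6% and 76.2% in WT libraries. Muc1 took 58.1%, 46.4% and 54.3% in Arid1a_Het, 37.4%, 70.2% and 47.1% in Ctrl libraries, and 13.6%, 21.2% and 21.3% in WT libraries. Among these 7 mucins, Muc5ac was thus the main transcript in each WT library, whereas in the NICD-carrying glands Muc1 was above it in 4 of 6 libraries.

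As a ratio chosen after the values were seen, and given with no test, Muc1 over Muc5ac was 1.47, 0.913 and 1.32 in Arid1a_Het, 0.691, 3.22 and 1.06 in Ctrl libraries, and 0.161, 0.273 and 0.279 in WT libraries. The WT values did not overlap those of either other genotype. The summed FPKM of the 7 mucins was 938, 1068 and 1047 in Arid1a_Het, 1061, 646 and 1133 in Ctrl libraries, and 1823, 1478 and 1189 in WT libraries. Muc4, Muc13 and Muc6 held small shares, of which Muc4 averaged 1.32% in Arid1a_Het, 3.50% in Ctrl and 0.190% in WT libraries.

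**Figure D4:**
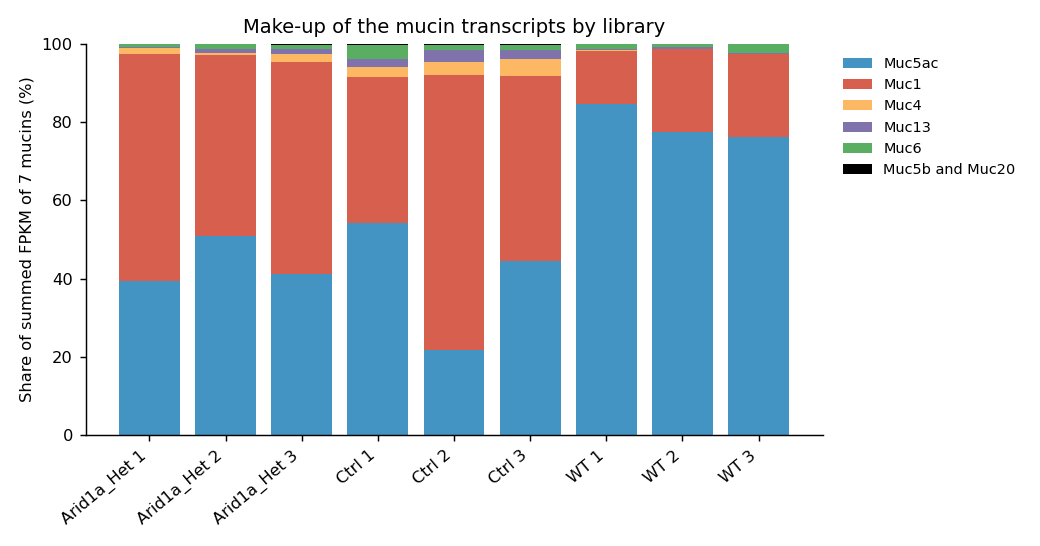
Stacked bars give the share of each mucin in the summed FPKM of the 7 mucins, in percent, for each of the 9 libraries. Muc5ac fills 76.2% to 84.6% of the WT bars and 21.8% to 54.1% of the Arid1a_Het and Ctrl bars, where Muc1 fills most of the rest.

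The promoters are shown for the 3 membrane mucins that were higher in Ctrl and for Muc6 and A4gnt, so that their letters can be set beside the values. The windows are the 250 bases before the start in RefSeq (GRCm38.p6), which held 6 of the 8 genes, and Muc5ac and Muc5b are named only. Capitals mark exact matches of 6 motifs on either strand, and variant forms of these motifs are not marked. The letters TGGGAA are the core bound by RBPJ, the DNA partner of the intracellular Notch domain. The letters AGATAA are bound by the family of GATA zinc finger proteins. The letters TGTTTAC are bound by forkhead proteins, and TTCCNGGAA is a narrow form of the palindrome of the STAT family. The letters GGGCGG are the box of the general activator SP1, whereas TATAAA is a form of the box of the basal machinery itself. Coordinates are chr3:89228806-89229055 (plus strand) for Muc1, chr16:32735636-32735885 (plus) for Muc4, chr16:33793787-33794036 (plus) for the first of 2 starts of Muc13, chr7:141655394-141655643 (minus) for Muc6 and chr9:99612252-99612501 (plus) for A4gnt, each 5′ to 3′.
Muc1: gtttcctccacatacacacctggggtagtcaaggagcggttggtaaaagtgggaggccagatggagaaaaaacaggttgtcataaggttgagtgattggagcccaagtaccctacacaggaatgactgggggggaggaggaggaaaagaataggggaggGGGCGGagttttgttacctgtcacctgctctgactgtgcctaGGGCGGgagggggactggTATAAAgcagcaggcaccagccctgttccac
Muc4: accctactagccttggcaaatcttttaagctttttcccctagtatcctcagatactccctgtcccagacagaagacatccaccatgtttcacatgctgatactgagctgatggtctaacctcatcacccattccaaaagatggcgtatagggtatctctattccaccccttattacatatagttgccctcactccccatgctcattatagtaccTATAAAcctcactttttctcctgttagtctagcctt
Muc13: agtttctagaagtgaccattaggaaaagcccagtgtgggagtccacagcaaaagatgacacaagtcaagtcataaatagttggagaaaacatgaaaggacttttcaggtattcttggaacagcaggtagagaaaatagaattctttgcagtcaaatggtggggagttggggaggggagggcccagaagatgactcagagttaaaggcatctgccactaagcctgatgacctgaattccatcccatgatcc
Muc6: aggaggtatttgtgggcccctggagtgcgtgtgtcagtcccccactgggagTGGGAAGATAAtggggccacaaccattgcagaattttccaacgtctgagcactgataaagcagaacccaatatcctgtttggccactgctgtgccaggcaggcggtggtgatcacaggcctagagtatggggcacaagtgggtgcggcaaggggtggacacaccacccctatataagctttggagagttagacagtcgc
A4gnt: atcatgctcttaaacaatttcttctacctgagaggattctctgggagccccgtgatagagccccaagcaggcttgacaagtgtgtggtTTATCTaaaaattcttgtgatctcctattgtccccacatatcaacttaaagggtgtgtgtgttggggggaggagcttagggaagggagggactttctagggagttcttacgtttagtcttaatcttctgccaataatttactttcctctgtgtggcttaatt
Of the 6 genes with a window, Muc6 held the RBPJ core, 199 to 194 bases before the start, and it shares 1 base with a GATA match. The RBPJ core is in 21.6% of all 32841 windows of this length, and AGATAA, also present in A4gnt on the opposite strand, is in 9.99%. Muc1 held GGGCGG at 91 to 86 and at 49 to 44 bases before the start and TATAAA at 31 to 26, and Muc4 held TATAAA at 36 to 31. GGGCGG is in 32.7% of all windows and TATAAA in 12.4%. Neither start of Muc13 held any of the 6 motifs, and Muc20 held TGTTTAC, which 3.17% of windows contain. No member held TTCCNGGAA, which is in 0.913% of windows. A match describes letters and does not show that a factor binds. Lack of a match does not show that an element is absent, since only these exact letters were searched. Near variants in the printed windows include tatataa and tgataa in Muc6 and ttcttggaa in Muc13.

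The genes whose pattern over the 9 libraries was most like each member were found by the mean absolute difference of centred log2(FPKM + 1) values over 10558 genes. The closest to Muc5ac were Snx22 (0.392) and Cfap45 (0.395), against a median of 0.818 over all genes. Muc1 had the nearest pair of all, Crim1 (0.105) and Lgmn (0.123), but its median over all genes, 0.435, was also the lowest of the 7 tested genes. Lgmn, the cysteine protease legumain, averaged 37.7 FPKM in Arid1a_Het, 33.3 FPKM in Ctrl and 21.5 FPKM in WT libraries. For Muc4 they were Hspa1b (0.284), a heat shock protein with a near-identical neighbour gene and so uncertain in its counts, and Itga2 (0.332), an integrin subunit, against a median of 1.25. Hspa1b averaged 19.5 ± 14.2 FPKM in Arid1a_Het, 45.9 ± 18.6 FPKM in Ctrl and 3.34 ± 2.74 FPKM in WT (SD, n = 3 each).

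Wnt4 (0.459) and Trf (0.475), a Wnt ligand and transferrin, were nearest to Muc13. Ankrd35 (0.278) and Spink4 (0.298), a protease inhibitor, were nearest to Muc6, Tspan6 (0.223) and Jun (0.250) to Muc5b, and Pkdcc (0.261) and Cdo1 (0.285) to A4gnt. Among the members themselves the closest pairs were Muc5b with Muc1 (0.422) and Muc6 with A4gnt (0.475), and the farthest was Muc5ac with Muc4 (2.05). The median distance to all compared genes was 0.541 for Muc5b, 0.435 for Muc1, 0.658 for Muc6 and 0.570 for A4gnt. Muc5b was thus about as far from Muc1 as a typical gene. The distance is not scaled to how much a gene varies. These are descriptions over 9 libraries that share the genotype groups.

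Other mucin genes were mostly scarce. Of 16 symbols listed, 7 were in the table and 2 were tested. Dpcr1, a mucin-like gene, was more abundant than Muc5ac in every library, at 1370, 1685 and 1061 FPKM in Arid1a_Het, 1065, 732 and 1665 FPKM in Ctrl, and 3064, 2620 and 2064 FPKM in WT libraries. WT libraries lay above all others. Dpcr1 was lower in Ctrl than in WT (log2 fold change -1.22, SE 0.32; limma adjusted p = 0.0432), as Muc5ac was, a call that ended in 10 of 18 alternatives, namely with no filter (0.125), quantile normalization (0.0841), only the Ctrl and WT libraries (0.0503), without the 2 libraries with most pancreas reads (0.111) and without Arid1a_Het 1 (0.0640), Ctrl 1 (0.118), Ctrl 2 (0.116), WT 1 (0.0867), WT 2 (0.119) or WT 3 (0.0732). Cd164, a sialomucin, ran from 80.4 to 125 FPKM over the libraries and was not called. Muc2, the intestinal goblet cell mucin, had 0.0143 to 1.11 FPKM, with the highest value in Ctrl 1.

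Genes of enzymes that can build O-linked sugar chains were taken as 3 lists of 49 symbols, of which 48 were in the table and 35 tested. Their RNA levels do not show on which molecules, mucins or others, the enzymes acted. Of the 35, 4 were higher and 3 lower in Ctrl than in WT libraries, and 28 were not called, beside 7.01% called higher and 3.04% called lower over all tested genes. With the replicate numbers of all 9 libraries as a block, 7 were higher and 6 lower, but that fit also called more of the whole table, 16.1% higher and 5.97% lower. With median-ratio scaling 4 were higher and 5 lower, beside 5.51% of all tested genes in each direction. Between Arid1a_Het and WT libraries 2 of the 35 were higher and limma, like limma voom, called 0 lower, beside 2.06% and 0.687% of all tested genes. An unadjusted p under 0.05 in that comparison was reached by 5 higher and 8 lower of the 35. Over all tested genes 17.2% reached it, counting both directions. The enzymes that start chains, the polypeptide GalNAc transferases, gave 1 call in 12, near the 7.01% of all tested genes called higher. That gene, Galnt18, was higher by 1.24 (SE 0.27; limma adjusted p = 0.0247) at means of 1.89 FPKM in Ctrl and 0.208 FPKM in WT. At such low levels the size depends on the pseudocount, and the value was 2.70 with a pseudocount of 0.1 and 3.22 with limma voom on whole reads. The Galnt18 call ended without Ctrl 1 (0.0636), Ctrl 2 (0.0573), Ctrl 3 (0.0983), WT 2 (0.0762) or WT 3 (0.0766).

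Among 10 tested genes of chain cores and extension, 2 were higher and 1 lower in Ctrl than in WT libraries, and 7 were not called, again beside 7.01% and 3.04% of all tested genes. Gcnt2, which makes branches on poly-N-acetyllactosamine chains, had 9.45, 4.71 and 20.4 FPKM in Arid1a_Het, 8.33, 9.82 and 17.7 FPKM in Ctrl, and 0.563, 1.17 and 0.789 FPKM in WT libraries. Every NICD-carrying library lay above every WT library. Gcnt2 was higher in Ctrl than in WT by 2.76 (SE 0.44; limma adjusted p = 0.00790), with an adjusted p of at most 0.0447 over 18 alternatives, and higher in Arid1a_Het than in WT by 2.57 (SE 0.44; 0.0189). The Arid1a_Het call ended without Arid1a_Het 1 (0.0662), WT 1 (0.0562), WT 2 (0.0548) or WT 3 (0.0743), with no filter (0.0633) and with only those 6 libraries (0.0617).

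B4galt4, a galactosyltransferase, was higher in Ctrl than in WT by 1.13 (SE 0.23; limma adjusted p = 0.0204), at means of 2.99 FPKM in Ctrl and 0.775 FPKM in WT. Its value was 1.75 with a pseudocount of 0.1 and 1.84 with limma voom on whole reads. B3gnt7, an N-acetylglucosaminyltransferase, was lower (log2 fold change -1.24, SE 0.32; adjusted p = 0.0404), at means of 1.68 FPKM in Ctrl and 5.60 FPKM in WT. The B4galt4 call ended without Ctrl 1 (0.0716), Ctrl 2 (0.0644), WT 2 (0.0621) or WT 3 (0.0595) and without the 2 libraries with most pancreas reads (0.0514). The B3gnt7 call ended with no filter (0.0812), limma voom (0.0595), without the 2 libraries with most pancreas reads (0.0611) and without Ctrl 1 (0.0990), Ctrl 2 (0.0880), Ctrl 3 (0.141), WT 1 (0.0805) or WT 3 (0.0891).

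Among 13 tested genes of chain ends, 1 was higher, near the 7.01% of all tested genes, and 2 were lower, beside 3.04%, in Ctrl than in WT libraries, and 10 were not called. St3gal4, a sialyltransferase, had 36.7, 16.2 and 42.5 FPKM in Arid1a_Het, 44.9, 38.9 and 42.6 FPKM in Ctrl, and 1.97, 3.41 and 7.02 FPKM in WT libraries. The WT libraries were all lower than the other 6. St3gal4 was higher by 3.19 in Ctrl (SE 0.40; limma adjusted p = 0.00320) and by 2.69 in Arid1a_Het (SE 0.40; 0.0114), both against WT. The Ctrl call kept an adjusted p of at most 0.0228 in 18 alternatives, and the Arid1a_Het call ended without Arid1a_Het 1 (0.0540), with only those 6 libraries (0.0575) and without the 2 libraries with most pancreas reads (0.0672).

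B4galnt3, which adds N-acetylgalactosamine to chain ends, had 18.1, 22.0 and 9.21 FPKM in Arid1a_Het, 12.6, 10.4 and 7.96 FPKM in Ctrl, and 56.6, 55.4 and 21.02 FPKM in WT libraries, of which WT 3 stood nearest to the others. It was lower in Ctrl than in WT (log2 fold change -1.90, SE 0.41; limma adjusted p = 0.0239), and St3gal3, another sialyltransferase, was lower (-1.34, SE 0.33; adjusted p = 0.0358), at means of 3.43 FPKM in Ctrl and 10.3 FPKM in WT. The B4galnt3 call ended with no filter (0.0549) and without Ctrl 1 (0.0553), Ctrl 2 (0.0644), Ctrl 3 (0.0975), WT 1 (0.0542) or WT 2 (0.0851), and the St3gal3 call with no filter (0.0736) and without Ctrl 1 (0.0613), Ctrl 2 (0.0904), Ctrl 3 (0.136), WT 2 (0.118) or WT 3 (0.0888).

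Genes of mucus folding and packaging gave 2 of 10 higher in Ctrl than in WT libraries, beside 7.01% of all tested genes, and 8 not called. Spdef, an ETS transcription factor of secretory cells, was higher by 1.12 (SE 0.21; limma adjusted p = 0.0152), at means of 46.1 FPKM in Ctrl and 20.9 FPKM in WT, a call that ended without Ctrl 1 (0.0501) or Ctrl 2 (0.0548). Creb3l1, a membrane-bound transcription factor of the secretory pathway, was higher by 0.83 (SE 0.23; adjusted p = 0.0490), at means of 72.8 FPKM in Ctrl and 40.1 FPKM in WT. That call ended in 12 of 18 alternatives, namely with no filter (0.0797), median-ratio scaling (0.138), quantile normalization (0.0734), limma voom (0.0567), without the 2 libraries with most pancreas reads (0.118), without Arid1a_Het 1 (0.0693) and without each of the 6 Ctrl and WT libraries, where it lay between 0.0556 and 0.146. Leukocyte markers, which moved in the same direction between these groups, are given above, and their part in these calls was not tested.

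Between Arid1a_Het and Ctrl libraries limma called none of the 35 sugar chain genes, and limma voom called none of the whole table. An unadjusted p under 0.05 was reached by 1 higher and 3 lower of the 35, a share near the 11.6% of all tested genes. The smallest belonged to Fut4, a fucosyltransferase, with 26.0, 31.6 and 23.0 FPKM in Arid1a_Het and 13.7, 15.0 and 17.1 FPKM in Ctrl libraries (log2 fold change 0.77, SE 0.19; limma adjusted p = 0.337). Fut2, a second fucosyltransferase, had 58.2, 43.9 and 50.4 FPKM in Arid1a_Het and 85.4, 69.8 and 71.1 FPKM in Ctrl libraries (-0.56, SE 0.23; adjusted p = 0.404). B4galt4 lay lower in all Arid1a_Het than in all Ctrl libraries too (-0.85, SE 0.23; limma adjusted p = 0.356). Chst4, the third lower gene, had the largest change, but its groups overlapped (-1.12, SE 0.47; limma adjusted p = 0.416). None of these genes was called, and over all tested genes 2.41% lay higher and 22.2% lower in Arid1a_Het than in Ctrl libraries without overlap.

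**Figure D5:**
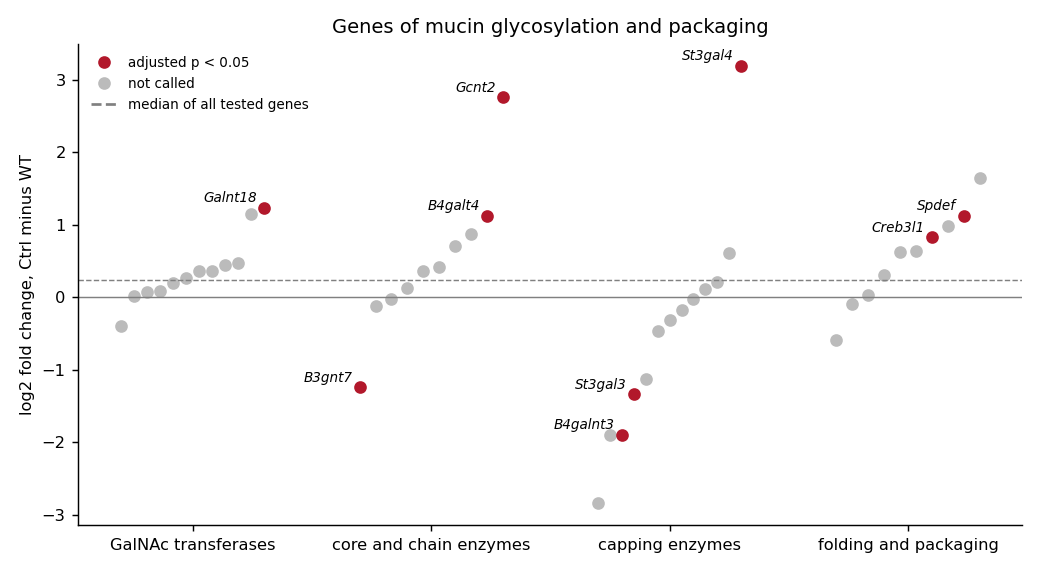
Log2 fold changes of Ctrl against WT on the log2(FPKM + 1) scale for the tested genes of 4 lists, 1 point per gene, red where the limma adjusted p was under 0.05. The dashed line is the median of all tested genes, 0.24. Gcnt2 (2.76) and St3gal4 (3.19) stand highest among the called genes and B4galnt3 (-1.90) lowest.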

How the data were processed

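Poly(A) RNA from corpus glands was sequenced after a stranded library preparation, per the labels' protocols. STAR 2.4.2a and the builds GRCm38 and mm10 are named in the submitters' processing notes. The tool that counted reads, its annotation, its strand setting and its treatment of reads with several matches are not given in the sources used here. The authors deposited FPKM values for 18423 genes. Whole reads were recovered from these FPKM values, since each gene's values are multiples of what 1 read is worth. For all 18423 genes the result was whole to within 0.01 of a read, and libraries held 22670299 to 29502263 reads. To reach their annotated length, 213 genes were multiplied by a whole factor. Of 18301 genes matched to the annotation, 74.6% then had an implied length within a fraction of 0.002 of the annotated length. Whole values alone do not show that the absolute counts are right.

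Genes with at least 1 FPKM in at least 3 libraries (11209, with 7214 left out) were tested with limma 3.58.1 (R 4.3.3) on log2(FPKM + 1), with group means over all 9 libraries, eBayes with a trend, and Benjamini-Hochberg adjustment over all tested genes at a threshold of 0.05. The added 1 makes a fold change on this scale understate the change of low genes. The fit was checked on simulated data. Ratios within a library were compared by exact two-sided permutation tests. The members and the lists were chosen with earlier results of these data known. Named genes are all members, the 2 genes nearest to each in pattern and the called list genes of lowest p (at most 4 in each direction and comparison, or the 2 of lowest p where none was called). Marker lists are given as sums, with only a few of their genes named.

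The alternatives were a pseudocount of 0.1, no filter, a minimum of 5 FPKM, median-ratio scaling, quantile normalization, only the groups compared, a replicate block, limma voom on whole reads, leaving out the 2 libraries with most pancreas reads (chosen after the data were seen), and leaving out each of the 9 libraries. The labels do not say that replicate numbers pair samples. Deviations from the group means correlated between same-numbered Ctrl and WT libraries at 0.207, 0.336 and 0.138. The replicate number was therefore entered as a block in that alternative, from the data alone. The numbers of Arid1a_Het libraries did not pair with those of the other groups, with correlations from -0.279 to 0.563, but they were part of the same block.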

Additional observations from a re-analysis of the deposited data

How the results depend on the processing

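Of the mucins and A4gnt, Ctrl against WT gave 3 calls upward, and 1 with no filter, 1 with median-ratio scaling and 0 to 3 when 1 library was left out. The 1 called lower became 0 with no filter, quantile normalization, only the groups compared, limma voom on whole reads or without the 2 libraries with most pancreas reads, and 0 to 1 with 1 library left out. For Arid1a_Het against WT the 1 called higher became 0 with no filter, median-ratio scaling, only the groups compared or without those 2 libraries, and 0 to 2 with 1 library left out, while 0 to 1 were called lower. Arid1a_Het against Ctrl had 0 calls among the members in all alternatives. The cause of these changes was not tested.

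Of the sugar chain genes (a count chosen after the data were seen), 4 higher in Ctrl than in WT became 2 at a minimum of 5 FPKM and 2 to 5 with 1 library left out, and 3 lower became 1 with no filter, 5 with median-ratio scaling, quantile normalization or only the groups compared, and 0 to 6 with 1 library left out. For Arid1a_Het against WT, 2 higher became 1 with no filter, 0 with only the groups compared, 1 without the 2 libraries with most pancreas reads and 0 to 2 with 1 library left out, and 0 lower became 1 with median-ratio scaling and 0 to 3 with 1 library left out.

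With the replicate block, the Ctrl against WT calls stayed at 3 higher and 1 lower among the members and moved to 7 higher and 6 lower among the sugar chain genes. The block left the Arid1a_Het against WT member calls at 1 and 0 and gave 3 higher and 4 lower sugar chain genes, with 691 of all 11209 tested genes called, although those numbers did not pair, and Galnt3 then passed the threshold (0.90, adjusted p = 0.0157). It changed no other named call.

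The A4gnt to Muc6 difference of Ctrl against WT was 0.0464 without the 2 libraries with most pancreas reads and ran from -0.91 to 0.17 with 1 library left out. Other values that changed sign were never called. For Ctrl against WT they were Muc6, from -0.68 to 0.39 with 1 library left out (above 0 without Ctrl 2, Ctrl 3, WT 1 or WT 3), and A4gnt, from -0.78 to 0.19 (above 0 without Ctrl 3 or WT 3). For Arid1a_Het against Ctrl they were Muc5ac, from -0.28 (without Ctrl 2) to 0.73 with 1 library left out, and A4gnt, at 0.18 with median-ratio scaling, 0.0092 with quantile normalization, 0.20 without the 2 libraries with most pancreas reads, and from -0.55 to 0.27 with 1 library left out (above 0 without Arid1a_Het 1, Ctrl 1 or Ctrl 2). For Arid1a_Het against WT they were Muc5b, at 0.0398 with a pseudocount of 0.1, 0.0304 with voom and from -0.26 to 0.31 with 1 library left out (above 0 without Arid1a_Het 1 or WT 2), A4gnt, from -0.82 to 0.0192 (without WT 3), and Cd164, from -0.0546 (without WT 2) to 0.26. Depth limits Muc20 (3 to 192 reads) and Muc5b (46 to 1172 reads) most.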
